A study of Mus musculus with 6 samples.

Results

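SOX transcription factors were followed in TurboRFP-sorted cells of the olfactory bulb (OB), labelled as astrocytes, from control and Sox9 KO mice, through 10 genes taken by their symbols from the 24421 genes listed: Sox9, Sox8 and Sox10 of group E, Sox2 and Sox1 of group B1, Sox21 of group B2, Sox4 and Sox11 of group C, and Sox5 and Sox6 of group D. All 10 were lower in the Sox9 KO libraries, with log2 fold changes from −6.54 to −0.69, and Sox9 itself fell the most and Sox4 the least, with a call for Sox4 that single libraries decided. The KO libraries also held far less RNA of astrocyte markers and more RNA of microglia and macrophage markers than the control libraries. Against the mean of 12 astrocyte markers in the same library, Sox9 and Sox21 were lower still, and Sox8, Sox10, Sox5 and Sox4 were relatively higher. Sox2, Sox1, Sox11 and Sox6 overlapped between the groups in this comparison. The changes of Sox21 and Sox8 lay within the range of the single markers.

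SOX proteins bind the minor groove of DNA through a domain called the HMG box and bend the helix, and they act together with partner factors that differ between cell types. Proteins of group E start and maintain glial and cartilage programs, those of group B1 keep neural progenitors undifferentiated, and those of group C act in young neurons. Group D proteins have no activation domain of their own and bind beside group E proteins on cartilage and oligodendrocyte genes. In the developing nervous system SOX9 drives the onset of gliogenesis with its partner NFIA, and in the adult brain it is used as a marker of astrocyte nuclei.

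Each library came from 1 mouse, with 3 control and 3 Sox9 KO mice, and the cells were sorted on TurboRFP at 4 weeks after a virus was injected into the OB. The virus, AAV-GFAP-iCre-P2a-TurboRFP, carries the recombinase iCre and the red protein TurboRFP behind the GFAP promoter, and both groups received it, so Cre, virus and reporter were shared. The labels give C57BL/6 as the strain of both groups, with genotype WT for controls and Sox9 KO for the others, which carried Sox9fl/fl alleles. The controls are described elsewhere as C57BL/6J mice and also as Sox9+/+ mice, so whether the groups share a background is not settled by the sources used here. The study describes the mice as adult males. Cells count as astrocytes here by the activity of the GFAP promoter and by the gate, and the sorted cells may include others that carried the reporter.

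Values are normalized counts, that is, reads counted per gene and divided by 1 size factor per library. Libraries held 18242129 to 86906527 reads assigned to genes, and 1 read was worth between 0.395 and 1.58 normalized counts. A gene was called lower or higher where its limma p, adjusted by the Benjamini-Hochberg method over the 18413 genes tested, was at most 0.05 and it changed at least 1.5-fold. This rule called 28.8% of all tested genes lower and 22.2% higher in KO libraries, and the 3 KO values all lay below the 3 control values in 34.7% of genes and all above them in 32.4%. All 10 members passed the filter on low values, with a mean of at least 1 in each group and no fewer than 27 reads in any library. All 10 were called lower and none higher, and the groups did not overlap in any of the 10. The median log2 fold change was −3.82 over the members and −0.07 over all genes tested.

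The sorted cells were checked against marker genes, because RNA of cell type markers moved along with the members. All 12 astrocyte markers were called lower, and none was at 0 in a library. Their summed level was between 511470 and 571320 normalized counts in control libraries and between 37063 and 47613 in KO libraries. The genes with the highest means were Slc1a2, which encodes the glutamate transporter GLT-1 (log2 fold change −4.30), Slc1a3, which encodes the glutamate transporter GLAST (−2.72), and Aqp4, the water channel of astrocyte end-feet (−3.26). All 10 markers of microglia and macrophages were called higher, led by Csf1r, the receptor that keeps microglia alive (36390 ± 4827 to 145500 ± 22233 normalized counts), and C1qb, a part of complement C1q (log2 fold change 2.17), and their summed level went from between 146010 and 174670 to between 512350 and 618160. In bulk libraries, fewer cells of a type and less RNA per cell cannot be told apart. The part of this shift in the changes of the Sox genes was not tested. The comparison with astrocyte markers given further on does not test it, because fewer cells and less marker RNA per cell would move those markers alike.

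Sequences upstream of the members' start sites were read for the core letters that SOX proteins bind, because the members moved together. Windows of 250 bases before a RefSeq start site (GRCm38.p6) were present for 8 of the 10 members, 13 windows in all. The letters ACAAAG or ACAATG, searched on both strands, occurred in 25.2% of 32851 such windows of the genome (ACAAAG in 16.5% and ACAATG in 10.7%, with some windows holding both), and matches of these letters cannot overlap each other. A set of 5 windows is printed 5′ to 3′ on the gene's strand, with matches in capitals: Sox21 and Sox2 as the largest falls among members that have a window, Sox8 as the SoxE member with a window, Sox5 as another gene with a match and Sox4 as the smallest fall.
Sox21: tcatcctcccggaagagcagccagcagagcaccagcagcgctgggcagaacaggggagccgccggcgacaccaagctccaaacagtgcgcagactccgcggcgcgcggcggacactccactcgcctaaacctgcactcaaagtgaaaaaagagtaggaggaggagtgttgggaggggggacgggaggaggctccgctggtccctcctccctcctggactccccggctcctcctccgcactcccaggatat
Sox2: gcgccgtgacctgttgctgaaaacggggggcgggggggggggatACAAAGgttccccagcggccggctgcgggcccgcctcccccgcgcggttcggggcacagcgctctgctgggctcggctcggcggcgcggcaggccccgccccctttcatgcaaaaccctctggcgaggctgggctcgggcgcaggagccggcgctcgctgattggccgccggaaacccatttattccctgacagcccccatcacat
Sox8: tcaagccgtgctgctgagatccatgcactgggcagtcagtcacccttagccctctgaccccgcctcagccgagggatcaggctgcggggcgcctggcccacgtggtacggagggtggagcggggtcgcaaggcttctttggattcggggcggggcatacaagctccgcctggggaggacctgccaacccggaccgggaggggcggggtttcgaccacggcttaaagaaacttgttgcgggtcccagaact
Sox5: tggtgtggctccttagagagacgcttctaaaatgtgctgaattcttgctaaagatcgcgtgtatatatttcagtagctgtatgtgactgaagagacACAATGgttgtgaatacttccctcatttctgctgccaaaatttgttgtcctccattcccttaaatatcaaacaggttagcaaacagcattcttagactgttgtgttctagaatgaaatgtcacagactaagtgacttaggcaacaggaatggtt
Sox4: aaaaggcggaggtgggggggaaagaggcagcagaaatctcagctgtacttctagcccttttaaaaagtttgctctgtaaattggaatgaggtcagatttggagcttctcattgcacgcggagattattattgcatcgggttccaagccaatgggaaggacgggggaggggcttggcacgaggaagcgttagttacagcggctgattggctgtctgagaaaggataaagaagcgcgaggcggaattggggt
The windows lie at chr14:118237031-118237280 (minus strand) for Sox21, chr3:34649745-34649994 (plus) for Sox2, chr17:25570687-25570936 (minus) for Sox8, chr6:143947107-143947356 (minus) for Sox5 and chr13:28953700-28953949 (minus) for Sox4. The Sox2 window held 1 match and the Sox5 window held 1, of ACAAAG and ACAATG respectively. Sox6 has 6 windows, of which 5 held a match, with 10 matches in all. In total 7 of the 13 windows (53.8%) held a match, in 3 of the 8 genes. Of these 7 windows, 5 are alternative starts of a single gene, Sox6. The share therefore rests mostly on 1 gene and cannot be read as an excess over the 25.2% of the genome. The Sox5 window also belongs to an alternative start inside the gene, whose 5′ end is annotated at chr6:144781977. No window at that end was present. No match was found in the windows of Sox21, Sox8, Sox4, Sox1 and Sox11. A match is a description of the letters and no site of binding, and a window without a match says only that these letters are not in it.

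Among the SoxE genes, Sox9 was the targeted gene and was checked in every library. Sox9 (chr11:112782224-112787760, plus strand, 4135 exon bases in GENCODE M21 on mm10) had 5185, 6562 and 4921 normalized counts in control replicates 1 to 3, and 52.6, 64.3 and 57.7 in KO replicates 1 to 3. The KO libraries lay within a narrow range far below every control library, with 53, 163 and 38 reads left. The mean fell from 5556 ± 881 to 58.2 ± 5.88 (SD, n = 3 each), which is 1.05% of the control level, and the log2 fold change of −6.54 (SE 0.15, limma adjusted p = 2.5e-09) was the 5th lowest of all genes tested. LoxP sites flank exons 2 and 3 of the floxed allele, which hold 6.14% and 74.7% of the bases of the Sox9 transcript, while exon 1 (chr11:112782224-112783015) holds 19.2% of it and 28.3% of the coding bases. The deposited counts are per gene, so reads from exon 1 of a recombined allele and reads from intact alleles were summed.

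Sox8, the closest relative of Sox9, is expressed in glia and can act on the same sites. Its counts were 2440, 2122 and 1819 in control libraries and 220.4, 307.5 and 325.1 in KO libraries. Every KO library was below every control library, and the mean of 284 ± 56.1 in KO was 13.4% of the 2127 ± 311 in control (log2 fold change −2.91, SE 0.17, limma adjusted p = 2.0e-07). Sox8 (chr17:25565892-25570686, minus strand) overlaps 2810468N07Rik on the opposite strand by at most 329 bases, and no source used here says whether counting used strand.

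Sox10 maintains oligodendrocytes, Schwann cells and olfactory ensheathing cells and is not a typical astrocyte gene. It had 355.1, 575.3 and 373.6 normalized counts in control libraries, and 108.2, 199.0 and 180.8 in KO libraries. The groups were separate, with control replicate 2 the highest and KO replicate 1 the lowest of the 6. Sox10 (chr15:79154908-79165240, minus strand) kept 37.4% of its control level, from 435 ± 122 to 163 ± 48.0 (log2 fold change −1.43, SE 0.27, limma adjusted p = 0.0009). Of the 9 oligodendrocyte markers, 8 were called lower (median log2 fold change −1.78, summed levels of 34796 to 62950 in control and 14252 to 24232 in KO), as were 5 of 5 markers of oligodendrocyte precursors (−3.05, 1856 to 2774 and 186 to 413) and 4 of 6 markers of olfactory ensheathing cells (−0.82, 3663 to 4879 and 1261 to 2715). Their part in the fall of Sox10 was not tested. Set against the mean log2 level of each list in the same library, a comparison chosen after the values were seen, Sox10 differed between KO and control by 1.47 against the precursor markers, with separate groups, and by 0.58 against oligodendrocyte markers and −0.24 against ensheathing cell markers, with overlapping groups in both. The mean of the ensheathing cell list was drawn down by 1 marker with a log2 fold change of −3.28, against −1.01 to −0.58 for the others.

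**Figure D1:**
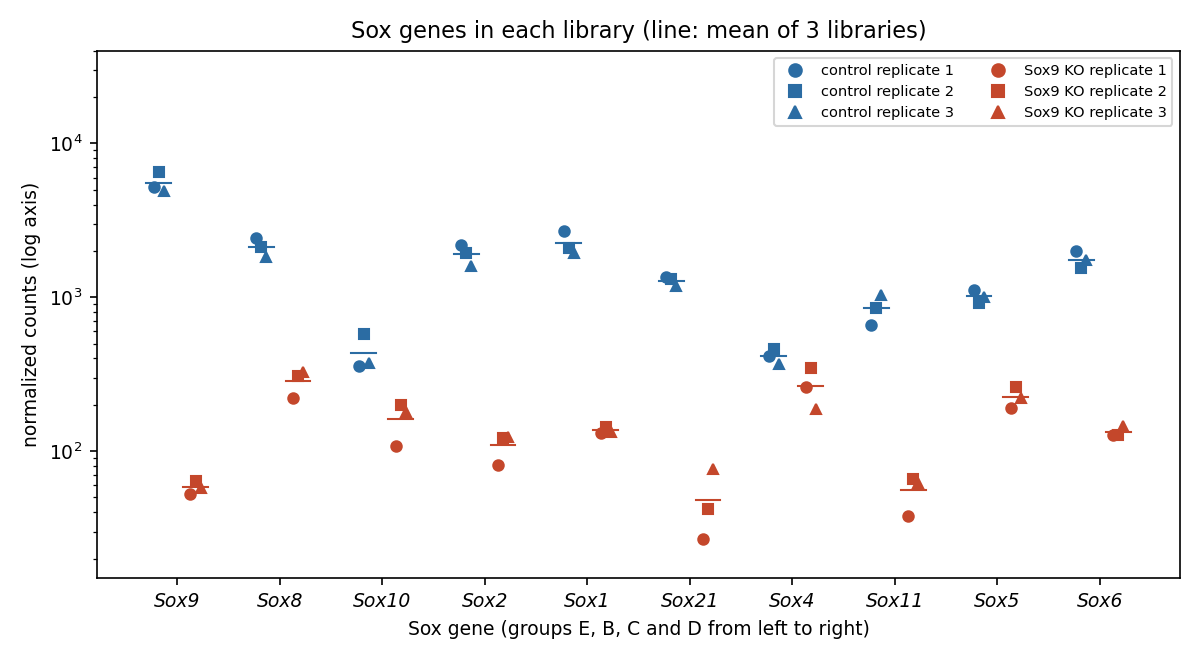
Normalized counts (log axis) of the 10 Sox genes in each of 3 control (blue) and 3 Sox9 KO (red) libraries, with a horizontal line at each group's mean and the genes ordered by group E, B, C and D. The groups are separate for every gene, with Sox9 at 4921 to 6562 against 52.6 to 64.3 and Sox4 at 370.4 to 459.0 against 186.9 to 345.8.

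The make-up of the SoxE genes differed between the groups. Compared per kilobase (kb) of exon, Sox9 gave 58.2%, 64.6% and 62.8% of the summed SoxE level in control replicates 1 to 3, and 10.7%, 8.67% and 7.87% in KO replicates 1 to 3. The share of Sox8 was 36.4%, 27.7% and 30.8% in control and 59.5%, 55.0% and 58.7% in KO, and that of Sox10 was 5.41%, 7.68% and 6.46% in control and 29.8%, 36.4% and 33.4% in KO. Sox9 was thus the largest of the SoxE genes in every control library, and Sox8 was the largest in every KO library. The place of Sox9 in KO libraries depends on which exons its reads came from: if all came from exon 1, and are divided by its 792 bases alone, the share of Sox9 becomes 38.5%, 33.2% and 30.8%, above that of Sox10 and below that of Sox8 in each KO library. This scaling was added after the data were seen. These are shares of a smaller sum, since the SoxE level per kb was 2153, 2456 and 1896 normalized counts in control and 119, 179 and 177 in KO.

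**Figure D2:**
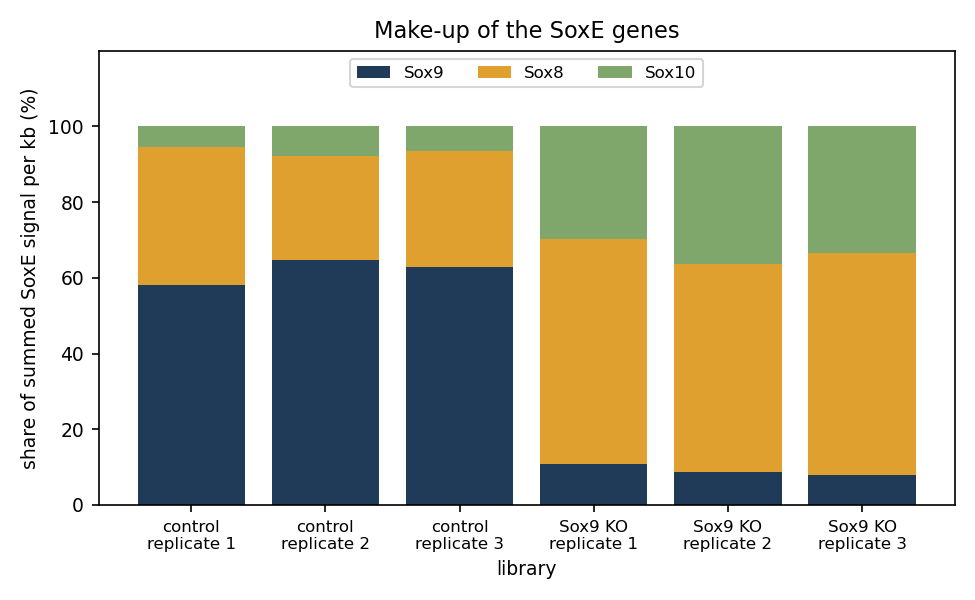
Share of Sox9, Sox8 and Sox10 in the summed SoxE level per kb of exon (%) in each library, as stacked bars. Sox9 makes up 61.9% ± 3.28 (SD, n = 3) in control and 9.08% ± 1.46 in KO libraries with all exon bases as the length, and Sox8 is the largest part in each KO library.

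SoxB genes are best known from neural stem cells, and Sox2 is also retained by mature astrocytes. Sox2 (chr3:34650405-34652461, plus strand) had 2186, 1941 and 1601 normalized counts in control libraries, and 81.4, 122 and 123 in KO libraries. KO replicate 1 was the lowest, and no KO library came near the lowest control. The mean fell from 1910 ± 294 to 109 ± 23.7, to 5.70% of control (log2 fold change −4.13, SE 0.19, limma adjusted p = 5.0e-08). Sox2 is a gene of a single coding exon and lies inside the span of Sox2ot, a long noncoding RNA on the same strand, with no shared exon bases in the annotation. Sox2ot was also called lower, from 722 ± 124 to 132 ± 52.9 (log2 fold change −2.50, limma adjusted p = 1.4e-05).

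Sox1, like Sox2 a SoxB1 gene of progenitors, had 2684, 2104 and 1943 normalized counts in control and 132, 144 and 134 in KO libraries. Relative to their mean, the KO values were closer together than those of any other member, at 136 ± 6.31 against 2244 ± 390 in control, or 6.08% (log2 fold change −4.02, SE 0.15, limma adjusted p = 1.4e-08). Sox21, a SoxB2 gene whose protein represses the targets that SoxB1 proteins activate, had 1362, 1310 and 1177 in control and 26.8, 41.8 and 76.0 in KO libraries. Its fall was the largest after that of Sox9, from 1283 ± 95.1 to 48.2 ± 25.2 (log2 fold change −4.83, SE 0.31, limma adjusted p = 4.2e-07). The KO libraries of Sox21 rested on 27, 106 and 50 reads. Sox1 lies at chr8:12395295-12400126 (plus strand) and Sox21 at chr14:118233232-118237030 (minus strand), where Gm4675 overlaps it on the opposite strand.

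The SoxC genes Sox4 and Sox11, which are known for switching on neuronal genes in new neurons, moved by different amounts. Sox11 (chr12:27334264-27342574, minus strand) had 660.5, 849.9 and 1036 normalized counts in control and 37.7, 66.3 and 62.3 in KO libraries. It fell from 849 ± 188 to 55.4 ± 15.5, to 6.53% of control (log2 fold change −3.93, SE 0.26, limma adjusted p = 4.4e-07). Sox4 (chr13:28948919-28953713, minus strand) had 417.9, 459.0 and 370.4 in control and 259.1, 345.8 and 186.9 in KO libraries. Its groups were separate by a small gap, and the mean of 264 ± 79.6 in KO was 63.5% of the 416 ± 44.3 in control (log2 fold change −0.69, SE 0.22, limma adjusted p = 0.0184). No other member's call depended on the libraries used, but that of Sox4 did: without control replicate 2 the change was −0.62 (adjusted p = 0.0737) and without KO replicate 3 it was −0.47 (adjusted p = 0.0605). Sox4 was also not called after quantile normalization (−0.29, adjusted p = 0.245), which moved the median of all genes by 0.27, or without the trend of variance (−0.69, adjusted p = 0.0574). Sox4 overlaps Gm26735 on the opposite strand by up to 2616 bases. The ratio of Sox11 to Sox4 per kb was 0.912, 1.07 and 1.61 in control and 0.084, 0.111 and 0.192 in KO libraries, so that the groups were far apart.

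Neuroblasts reach the OB throughout adult life and express SoxC genes, and 8 of 8 neuroblast markers were called lower (median log2 fold change −3.67, summed levels of 3601 to 4407 in control and 141 to 338 in KO). Neuron markers were called lower in 9 of 10 cases (median −2.51, 23919 to 30185 and 3737 to 6288). Relative to the mean log2 level of the neuroblast markers, again a comparison chosen after the values were seen, Sox11 was 1.93 ± 0.23 above it in control and 1.86 ± 0.32 in KO, with overlapping groups. Sox4 was 0.92 ± 0.19 above it in control and 4.09 ± 0.69 in KO, with separate groups. Relative to the microglia and macrophage markers, Sox4 differed by −2.56 between KO and control. The part of these cell types in the changes of Sox4 and Sox11 was not tested.

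The SoxD genes Sox5 and Sox6 encode long proteins that pair with each other and with SoxE proteins at cartilage and oligodendrocyte genes. Sox5 (chr6:143828425-144781977, minus strand) had 1122, 923.5 and 999.3 normalized counts in control and 191.6, 261.3 and 221.8 in KO libraries. It kept 22.2% of its control level, from 1015 ± 100 to 225 ± 35.0 (log2 fold change −2.18, SE 0.15, limma adjusted p = 7.6e-07). Sox6 (chr7:115470872-116038796, minus strand) had 1989, 1540 and 1735 in control and 127.1, 127.1 and 145.8 in KO libraries. It kept 7.60%, from 1755 ± 225 to 133 ± 10.8 (log2 fold change −3.70, SE 0.14, limma adjusted p = 1.8e-08). The ratio of Sox6 to Sox5 per kb was 1.72, 1.62 and 1.68 in control and 0.643, 0.472 and 0.637 in KO libraries, so the gene with the higher level per kb changed from Sox6 to Sox5. Both genes have several isoforms, and Sox5os1 overlaps Sox5 on the opposite strand by up to 1330 bases.

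**Figure D3:**
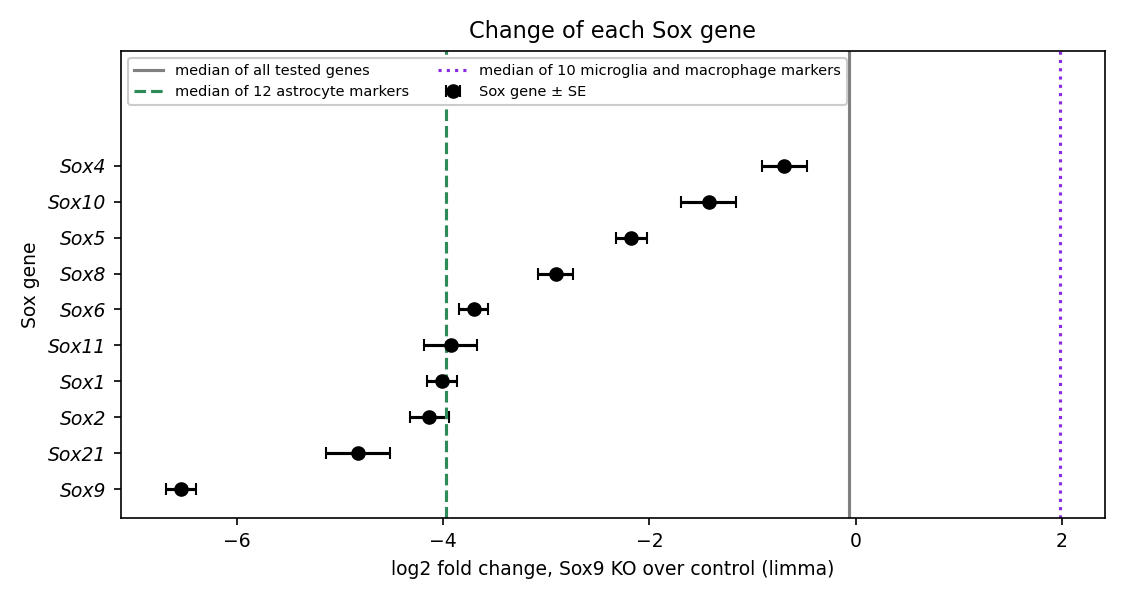
log2 fold change of each Sox gene (KO over control, limma; bars are standard errors), ordered by size, with lines at the medians of all tested genes (−0.07), of 12 astrocyte markers (−3.97) and of 10 microglia and macrophage markers (1.98). Sox9 at −6.54, Sox21 at −4.83, Sox2 at −4.13 and Sox1 at −4.02 lie below the astrocyte median, Sox2 by less than its standard error and Sox1 likewise, and Sox4 at −0.69 lies nearest to the median of all genes.

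The members differed in where they stood among all genes. Sox9 fell as much as or more than all but a few genes, and only 0.0272% of the genes tested had a log2 fold change that low. The corresponding share was 0.576% for Sox21, 1.78% for Sox2, 2.18% for Sox1, 2.44% for Sox11 and 3.26% for Sox6. It was larger for Sox8 (7.63%), Sox5 (14.1%), Sox10 (22.7%) and Sox4 (34.3%). The 5 members whose coding sequence lies in 1 exon (Sox2, Sox1, Sox21, Sox4 and Sox11) had log2 fold changes from −4.83 to −0.69, with a median of −4.02. The 5 with several coding exons had changes from −6.54 to −1.43, with a median of −2.91. The ranges overlapped, and the part of this feature in the changes was not tested.

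The order of the levels per kb of exon also changed. Lengths were merged over all isoforms, to 14376 bases for Sox5 and 14832 for Sox6. The levels per kb of these genes may therefore be understated, and their places in the order depend on this length. In control libraries Sox9 was highest at 1344 ± 213 normalized counts per kb, above Sox2 (928) and Sox8 (682), whose ranges overlapped. Sox1 (464) and Sox21 (338) followed, each apart from its neighbours, and Sox10 (142), Sox6 (118), Sox11 (102), Sox4 (86.7) and Sox5 (70.6) formed a run in which each neighbouring pair overlapped. In KO libraries Sox8 was highest (91.2), followed by Sox4 (55.0), Sox10 (53.3) and Sox2 (52.9), each overlapping the next. Sox1 (28.2) stood apart below them. Sox5 (15.6), Sox9 (14.1), Sox21 (12.7) and Sox6 (8.99) overlapped in turn, and Sox11 (6.67) was lowest. Sox9 went from rank 1 to rank 7 of 10, or to rank 2, at 73.5 ± 7.43 per kb, where its KO values were divided by the bases of exon 1 alone.

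Each member was also compared with the mean of the 12 astrocyte markers in the same library, on log2(normalized count + 1). That mean was 14.32 ± 0.08 in control and 10.44 ± 0.11 in KO (SD, n = 3), a difference of −3.88. The single markers had log2 fold changes from −5.25 to −2.72. Sox21 (−4.83) and Sox8 (−2.91) lay within this range, and Sox9, Sox5, Sox10 and Sox4 lay outside it. With 3 against 3 libraries the two-sided exact permutation test cannot give a p below 0.1. Sox9 stood 1.89 below the marker mean in control (−1.89 ± 0.18) and 4.56 below in KO (−4.56 ± 0.05), a relative difference of −2.67 with separate groups (exact permutation p = 0.1). Sox21 was the other member that was relatively lower with separate groups, by −0.95 (exact permutation p = 0.1), with KO replicate 3 much closer to the controls than the other two. Sox4 was relatively higher by 3.19, Sox10 by 2.45, Sox5 by 1.70 and Sox8 by 0.97, each with separate groups (exact permutation p = 0.1 each). The groups overlapped for Sox2 (−0.26, exact permutation p = 0.2), Sox1 (−0.14, p = 0.4), Sox11 (−0.05, p = 0.9) and Sox6 (0.17, p = 0.3). For Sox11 the direction of so small a difference turned when control replicate 3 (0.15) or KO replicate 1 (0.14) was left out.

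**Figure D4:**
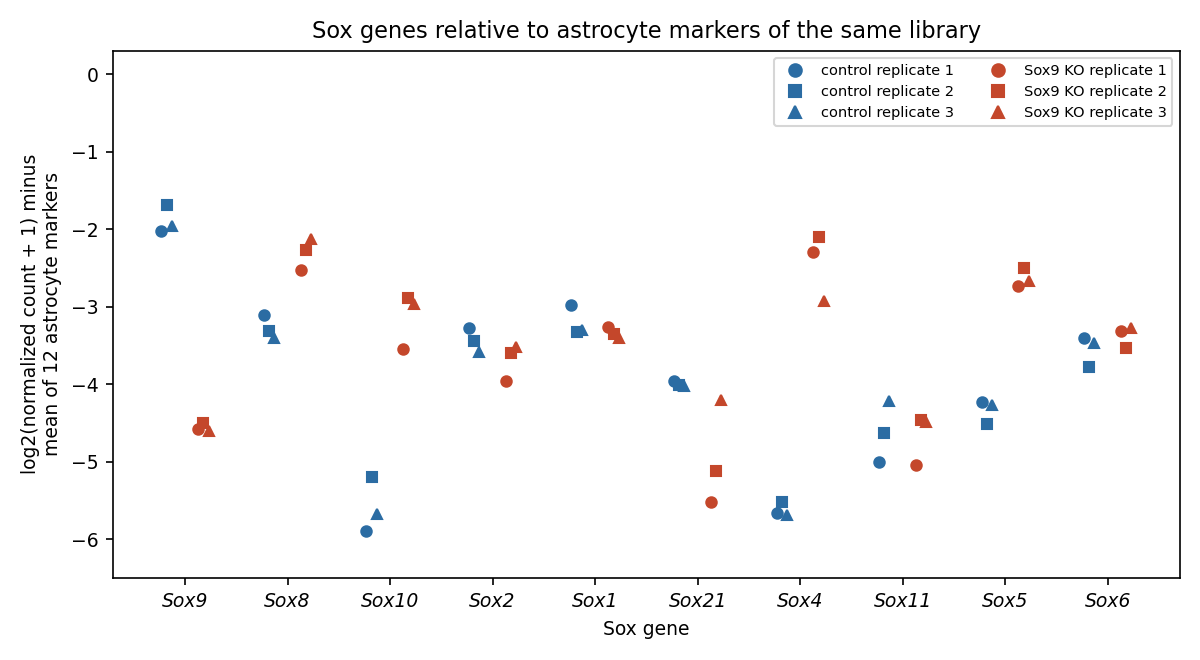
log2(normalized count + 1) of each Sox gene minus the mean of 12 astrocyte markers in the same library, for 3 control (blue) and 3 KO (red) libraries. Sox9 goes from −1.89 to −4.56 and Sox21 is also lower in every KO library, by −0.95 on average, while Sox8, Sox10, Sox4 and Sox5 lie higher in every KO library than in any control, and Sox2, Sox1, Sox11 and Sox6 overlap.

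The family holds 20 genes in these tables, and the 10 others were used as a comparison. Of these, 8 were tested, 6 were called lower and 1 higher, with a median log2 fold change of −2.33. The same rule called 28.8% of all genes tested lower and 22.2% higher, and the median of all genes tested was −0.07. Sox3, a SoxB1 gene, went from 35.9 ± 4.72 normalized counts to 2.44 ± 2.48 (−3.76), with 5, 6 and 0 reads in KO libraries, and Sox12, a SoxC gene, from 158 ± 23.1 to 25.0 ± 4.74 (−2.62). Sox13, the other SoxD gene, had 594.8, 402.6 and 342.0 in control and 48.6, 64.0 and 27.3 in KO libraries (−3.27). The SoxF genes, which are known from blood vessels, were called lower too: Sox7 went from 256 ± 99.1 to 22.1 ± 14.1 (−3.58), Sox18 from 25.5 to 6.81 (−1.89), and Sox17 from 26.4 to 5.69 with overlapping groups (−2.04, limma adjusted p = 0.0326). Endothelial markers were called lower in 3 of 6 cases and higher in 1 (median −0.72, summed levels of 1147 to 1876 and 1292 to 1690). Sox30, a gene known from the testis, was called higher at very low counts, with 1, 1 and 3 reads in control and 9, 37 and 8 in KO libraries (log2 fold change 2.14, SE 0.64, limma adjusted p = 0.0139), a fold change that depends on the pseudocount at this depth. Sox15 was not called (14.4 and 29.1, log2 fold change 0.86, limma adjusted p = 0.175), and Sox14 and Sry had 0 reads in every library.

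Genes known to work with or below these factors were counted from 5 lists, 38 genes in all, of which 30 were called lower, 2 higher and 6 neither, with a median log2 fold change of −2.56. By the same rule 28.8% of all genes tested were called lower and 22.2% higher. Genes that SOX9 and NFIA activate together in astrocyte precursors were all called lower: Mmd2, a membrane protein of glial precursors, went from 7904 ± 991 to 583 ± 91.6 (−3.76), Zcchc24 from 4977 ± 496 to 2191 ± 206 (−1.18) and Apcdd1, an inhibitor of Wnt signalling, from 1059 ± 156 to 572 ± 197 (−0.94). The median of these 3 genes was −1.18. Of 11 cartilage matrix genes, the classical targets of SOX9 with SOX5 and SOX6, 8 were called lower, 1 higher (Comp, 1.58) and 2 neither (median −1.68). Hapln1, which links hyaluronan to proteoglycans, went from 2117 ± 414 to 168 ± 10.5 (−3.63), Col9a3 from 1243 ± 166 to 101.1 ± 6.46 (−3.60) and Col11a1 from 612 ± 53.8 to 288 ± 111 (−1.17).

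SOX10 targets of myelinating and neural crest glia were called lower in 7 of 10 cases, higher in 1 (Mitf, a pigment cell and myeloid transcription factor, 1.88) and neither in 2 (median −1.54). Mbp, myelin basic protein, went from 18665 to 8935 (−1.09) and Ednrb, an endothelin receptor that astrocytes also express, from 17374 to 977 (−4.14); 3 of these 10 genes, Mbp among them, are also in the oligodendrocyte list. Of 11 SOX2 partners and targets of neural progenitors, 10 were called lower and 1, Hes1, was not (log2 fold change −0.17), with a median of −4.17. That median was close to the −3.97 of the astrocyte markers, and the part of astrocyte RNA in it was not tested. Egfr, the receptor for epidermal growth factor, had 5150, 4656 and 4139 normalized counts in control and 125.1, 246.3 and 223.3 in KO libraries (−4.60). Nes, the intermediate filament nestin, went from 2228 ± 712 to 75.1 ± 33.6 (−4.90) and Pou3f3, a POU factor that pairs with SoxB1 proteins, from 1838 ± 219 to 92.8 ± 23.7 (−4.32). Of 3 SoxC targets of young neurons, Dcx (−4.72), which encodes doublecortin and is also in the neuroblast list, and Tubb3 (−2.98), a neuronal tubulin, were called lower, and Tead2 was not (−0.44, limma adjusted p = 0.158).

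**Figure D5:**
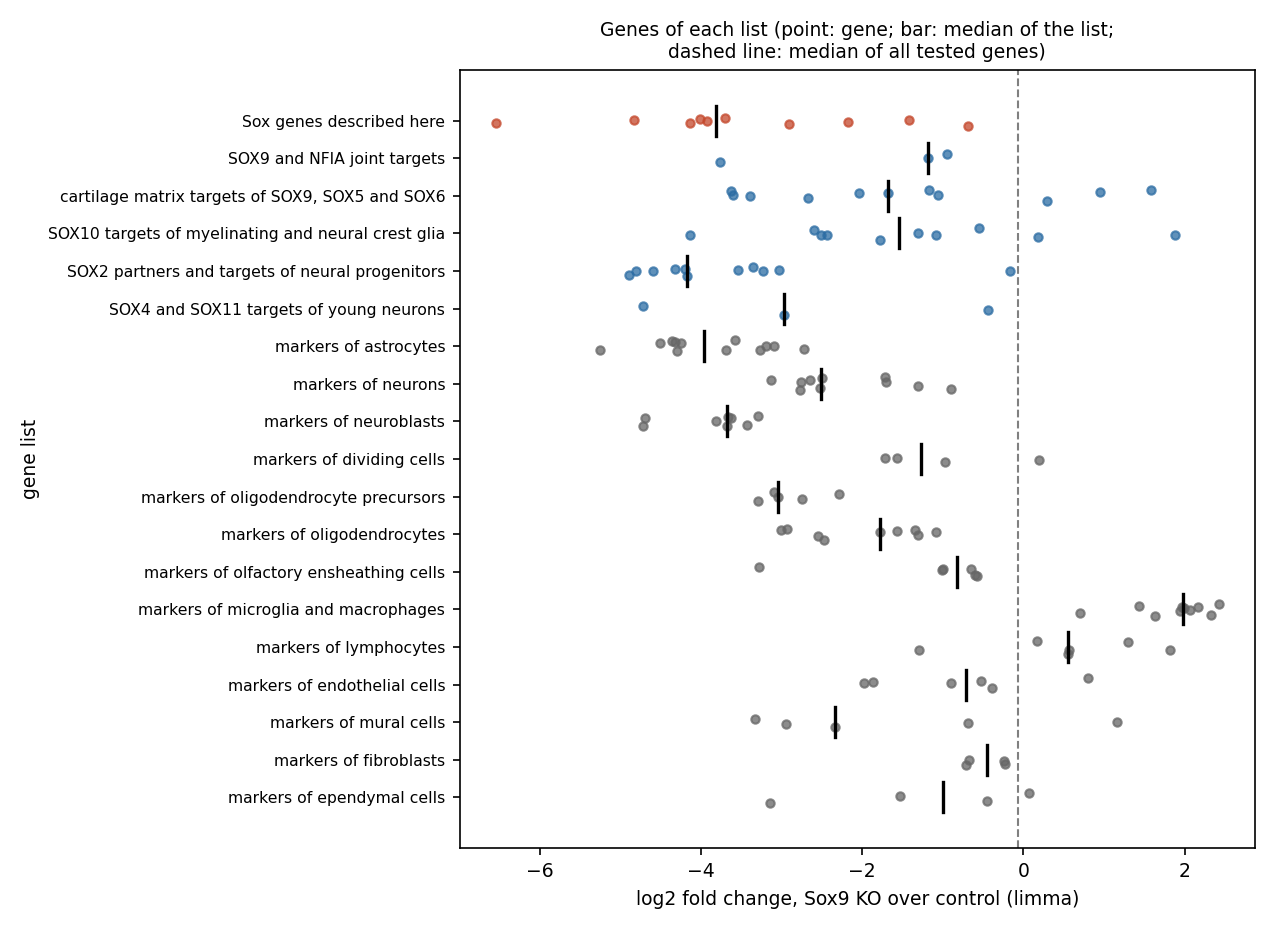
log2 fold change (KO over control, limma) of each gene in the 10 Sox genes (red), 5 lists of SOX partner and target genes (blue) and 13 lists of cell type markers (grey), with a bar at the median of each list and a dashed line at the median of all tested genes (−0.07). The Sox genes (−3.82), SOX2 partners and targets (−4.17) and astrocyte markers (−3.97) lie furthest left and the microglia and macrophage markers (1.98) furthest right.

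The genes whose levels followed Sox9 most closely over the 6 libraries, among 11925 genes with a mean of at least 100, were Abat, Tmem38a and Klf9, with Pearson r of 1.00 each on the log2 scale. The 6 libraries fall into 2 clusters by group, so r mainly records the difference between the groups, and it is given without a p. Abat, which encodes GABA transaminase, had 12782, 14554 and 12334 normalized counts in control and 699.9, 784.4 and 741.4 in KO libraries. Its highest values were in replicate 2 of each group, as for Sox9. Among the members, Sox1 came closest to Sox9, at rank 256 (r = 0.9965), and Sox4 was the least alike, at rank 3929 (r = 0.8018).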

How the data were processed

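RNA of TurboRFP-sorted cells from 3 control and 3 Sox9 KO mice was sequenced after amplification with the NuGEN Trio RNA-Seq system. The authors aligned reads to mm10 by STAR 2.5.0a, built count matrices by GenomicAlignments and GenomicFeatures and used DESeq2 1.20.0 for normalization (versions per the submitters' processing notes). No source used here gives the annotation or the use of strand. The deposited signal values, named RPM by the authors, proved to be reads counted per gene over a single size factor for each library (100% whole multiples within 0.01 read) and are called normalized counts. A log-scale test had been chosen for RPM and was kept, with the count tests on recovered reads as alternatives.

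After genes whose mean was below 1 had been left out (6008, leaving 18413), log2(normalized count + 1) was fitted by limma 3.58.1 (R 4.3.3), using a variance trend and two-sided p-values. A call needed an adjusted p of 0.05 over all genes tested and 1.5-fold. Fold changes on this scale understate changes of low genes. edgeR 4.0.16, DESeq2 1.42.0, other pseudocounts, filters and scalings, a replicate block and leaving out each library were the alternatives, and the scripts were tested on simulated counts. The annotation for coordinates was GENCODE M21, and lengths are merged exon bases of a gene. Of the symbols, 27 are dates as a spreadsheet writes them. Rn45s, a ribosomal RNA, took 14.2% to 22.4% of reads on genes. Libraries are separate mice, and their small number and unequal depth limit precision.

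The members, the 5 lists of partner and target genes and the 13 marker lists were chosen with earlier results of these data known. The genes named are all members, every other Sox gene with a mean of at least 1, up to 3 genes of each list by highest mean over the 6 libraries, and the 3 genes most correlated with Sox9, except that 2 genes of the lists are counted but not reported here by name; Comp, Mitf and Hes1, and genes of the other lists given by name outside the highest 3, were named after their values were seen.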

Additional observations from a re-analysis of the deposited data

How the results depend on the processing

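Over 20 alternatives, between 9 and 10 of the 10 Sox genes were called lower and none was called higher, and between 5 and 7 of the other Sox genes were called. The log2 fold changes ranged from −6.87 to −6.34 for Sox9, from −3.24 to −2.74 for Sox8, from −1.75 to −0.94 for Sox10 and from −1.02 to −0.29 for Sox4. Most of the lowest values came from scaling to the same total without Rn45s and most of the highest from quantile normalization, which moved the median of all genes by −0.31 and 0.27. Of all calls, 56.4% were lower in KO, against 67.8% with the same total, 71.5% without Rn45s and 43.2% after quantile normalization. Sox4 lost its call after quantile normalization (−0.29), without the trend (−0.69), without control replicate 2 (−0.62) and without KO replicate 3 (−0.47), and the cause was not tested. Relative to astrocyte markers, Sox11 (−0.05) turned to 0.038 with a pseudocount of 5, to 0.15 without control replicate 3 and to 0.14 without KO replicate 1, over a range of −0.24 to 0.15 with each library left out. Libraries with the same replicate number did not deviate together (r from −0.05 to −0.01, and 0 of 6 libraries correlated best with their own number). With so few libraries this cannot show whether they shared a sorting day or a batch. With the replicate block, 10 Sox genes were lower, and 5227 genes in all were lower and 4048 higher, against 5299 and 4090 without it. With the Sox9 values of KO libraries over exon 1 alone, an alternative added after seeing the data, the share of Sox9 among SoxE genes in KO was 34.2% instead of 9.08%, and its rank per kb was 2 instead of 7. Partner and target genes were called lower in 26 to 32 cases over 11 alternatives, with 30 as reported. Depth limits what can be read from Sox3, Sox15, Sox17, Sox18 and Sox30, which had fewer than 10 reads in at least 1 library.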

Other observations

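The other marker lists moved in several directions. Mural cell markers were called lower in 4 of 5 cases (median log2 fold change −2.34), led by Pdgfrb, the receptor that marks pericytes, which went from 940 ± 165 normalized counts to 92.8 ± 17.2 (log2 fold change −3.33, limma adjusted p = 1.9e-07), while Rgs5 went from 680 ± 159 to 155 ± 113 (−2.34) and Vtn from 912 ± 139 to 567 ± 105 (−0.69). Of 4 ependymal markers, 2 were called lower (median −0.99), among them Foxj1, the regulator of motile cilia, which went from 926 ± 176 to 103 ± 14.2 (−3.14). The other ependymal markers were low in control libraries, with means of 34.5 for Rarres2, 11.4 for Ccdc153 and 2.98 for Tmem212. By edgeR 1 of the 4 was called lower and by DESeq2 2. Of 4 fibroblast markers, 0 were called by limma, 1 was called lower by edgeR and 2 by DESeq2, and 2 had an unadjusted limma p of at most 0.05 (median −0.46, with Dcn at 559 ± 191 and 351 ± 118). Of 4 markers of dividing cells, 3 were called lower (median −1.27), and Cdk1 was not (66.6 and 76.2). Mki67 was called lower with overlapping groups, at 907 ± 398 in control and 451 ± 174 in KO libraries.

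Lymphocyte markers were low in all libraries, and 1 of 6 was called: Cd79b, a part of the B cell receptor that microglia also express, was higher, at 104 ± 23.9 normalized counts in control and 378 ± 136 in KO (log2 fold change 1.81, limma adjusted p = 0.00018). Cd79a, its partner in the receptor, had 29.2 ± 10.6 in control and 12.9 ± 9.95 in KO (log2 fold change −1.30, not called, adjusted p = 0.0663). Among endothelial markers, Flt1 was called higher, from 592 ± 95.8 to 1028 ± 123 (0.80), and Pecam1 and Cdh5 were not called (−0.53 and −0.39). The other 3 of the 6, Cldn5 (−0.90), Tek (−1.98) and Ly6c1 (−1.86), were called lower.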
